A study of Homo sapiens with 6 samples.

Results

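The transcripts of 10 chemokines that epithelial cells can make were followed in T3M4, an established human pancreatic ductal adenocarcinoma cell line. The genes CXCL1, CXCL2, CXCL3, CXCL5, CXCL6, CXCL8, CXCL10, CXCL16, CCL20 and CCL28 were taken by name from the deposited count table, and all 10 were found among its 58735 gene rows. Bulk RNA-seq counts came from 6 libraries of untreated cells grown close to confluence in a serum-containing medium. The 3 libraries titled T3M4WT, called WT-labelled below, have a genotype label that reads MUC16 expressing. The 3 titled T3M4M16, called knockout-labelled below, have the genotype label MUC16 knockout, and MUC16 encodes a large mucin of the cell membrane. How the knockout was made, and whether it is 1 clone or a pool, is not in the labels. Separate cultures are not named for the replicates either, so p-values measure only the spread between these libraries, which may be technical.

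Chemokines are small secreted proteins that direct the movement of cells through G protein-coupled receptors. CXC chemokines with a Glu-Leu-Arg (ELR) motif before the first cysteines, here CXCL1, CXCL2, CXCL3, CXCL5, CXCL6 and CXCL8, bind CXCR2, and some also CXCR1, and attract neutrophils. CXCL10 binds CXCR3 on activated T cells, CXCL16 is made as a membrane protein that binds CXCR6, CCL20 binds CCR6, and CCL28 is a mucosal chemokine for CCR10 and CCR3. In epithelial and carcinoma cells the ELR genes are known targets of NF-kB downstream of interleukin-1 and TNF, and their mRNAs carry AU-rich elements that shorten their lifetime.

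Between 19088927 and 28612621 reads were counted per library, and levels are given as CPM, counts scaled to the library total after TMM (trimmed mean) adjustment. MUC16 RNA was itself higher in the knockout-labelled libraries. MUC16 had 98, 144 and 90 counts in the WT-labelled libraries and 292, 504 and 323 in the knockout-labelled ones (log2 fold change 1.79 ± 0.17, SE). A genotype label gives no RNA level, so these counts cannot decide whether the labels are right. Every direction below is that of the labels. Whole-gene counts do not show which exons were read. The 7 epithelial markers listed, KRT8, KRT18 and EPCAM among them, were all read in every library, and all 7 were called higher in the knockout-labelled libraries, as were 26.7% of all genes tested. KRT8, a keratin of simple epithelia, went from 737.4 ± 8.65 to 1453 ± 44.6 CPM, KRT18 from 452.2 ± 18.9 to 534.9 ± 26.4 CPM and EPCAM from 195.6 to 205.1 CPM up to 302.3 to 337.0 CPM across libraries. Of 9 leukocyte markers 7 were too low to test and the other 2 were not called. The 9 summed to 3.79 to 4.53 CPM in the WT-labelled libraries and 5.70 to 6.70 CPM in the knockout-labelled ones, FCGR3B was at 0 in all libraries, and PTPRC had 0, 4 and 1 counts against 1, 8 and 2. Endothelial markers summed to 13.4 to 16.6 and 19.7 to 22.0 CPM, most of it PECAM1 (13.9 ± 1.76 and 17.8 ± 0.553 CPM). All 3 endothelial markers tested were called higher (median log2 fold change 1.40, that of VWF), as were 26.7% of all genes tested. PECAM1 rose by 0.36 and CDH5 by 1.53, from 23, 13 and 18 counts to 52, 46 and 54. VWF rose by 1.40, from 13, 2 and 5 counts to 17, 20 and 15. It passed the filter on low counts only through the knockout-labelled libraries, which favours a higher call. KDR had 0, 0 and 1 counts against 1, 0 and 0. Fibroblast markers summed to 31.5 to 34.7 and 42.8 to 47.1 CPM, most of it COL1A1 (31.4 ± 1.92 and 42.2 ± 2.26 CPM), the 1 of 3 tested that was called higher. COL1A2 had 0 counts in 5 of the 6 libraries and 1 in the other. The part of these markers in the results below was not tested.

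The ELR genes share a short stretch before their start sites. It is shown here because all 4 chemokines called lower hold it, as do CXCL5, CXCL6 and CXCL10, which were not called or not tested. It is GGAATTTCC, the centre of a classical NF-kB site, searched on both strands of the RefSeq windows from 250 bases before to 50 after each start (GRCh38.p14, which has the chromosome coordinates of the GRCh38 count table). Windows were found for 9 of the 10 genes and not for CXCL16. The stretch was in the windows of all 6 ELR genes and, on the opposite strand, of CXCL10, but not of CCL20 or CCL28, and in 0.461% of all 35116 windows. The 30 bases around each match follow, 5′ to 3′ on the gene's strand, with the match in capitals.
CXCL1, chr4:73869305-73869334, plus strand: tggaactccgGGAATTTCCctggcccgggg
CXCL2, chr4:74099253-74099282, minus strand: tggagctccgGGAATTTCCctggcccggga
CXCL3, chr4:74038748-74038777, minus strand: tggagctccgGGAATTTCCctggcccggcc
CXCL5, chr4:73998748-73998777, minus strand: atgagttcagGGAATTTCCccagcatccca
CXCL6, chr4:73836579-73836608, plus strand: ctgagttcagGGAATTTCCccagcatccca
CXCL8, chr4:73740468-73740497, plus strand: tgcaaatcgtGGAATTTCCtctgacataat
CXCL10, chr4:76023654-76023683, minus strand: aggagcagagGGAAATTCCgtaacttggag

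The match began 77 to 91 bases before the start in the ELR genes and 176 before it in CXCL10. The flanks fall into sets. Those of CXCL1, CXCL2 and CXCL3 were alike, those of CXCL5 and CXCL6 were alike, and CXCL8 stood alone. Over the whole windows, aligned identity was 82.5% for CXCL1 and CXCL3, 72.1% for CXCL1 and CXCL2, 73.8% for CXCL2 and CXCL3 and 83.1% for CXCL5 and CXCL6. A looser NF-kB pattern, GGG and CC with any 5 bases between on either strand, overlaps the first in most ELR genes. It matched all 9 genes, but also 58.7% of all windows. Only CXCL8 among them held the AP-1 letters TGACTCA, found in 4.95% of all windows, and only CXCL10 held an interferon-response pattern, 2 copies of GAAA with any 2 bases between, found in 3.57% (both strands each). The TATA box letters TATAAA, on the gene's strand, were in the windows of CXCL8 and CCL20 and in 7.33% of all windows. The AP-1 stretch of CXCL8 and the interferon-response stretch of CXCL10 follow. A match describes the letters only and says nothing of binding in these cells.
CXCL8, chr4:73740422-73740451, plus strand: ggaagtgtgaTGACTCAggtttgccctgag
CXCL10, chr4:76023699-76023728, minus strand: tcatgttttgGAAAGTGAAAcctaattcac

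**Figure D1:**
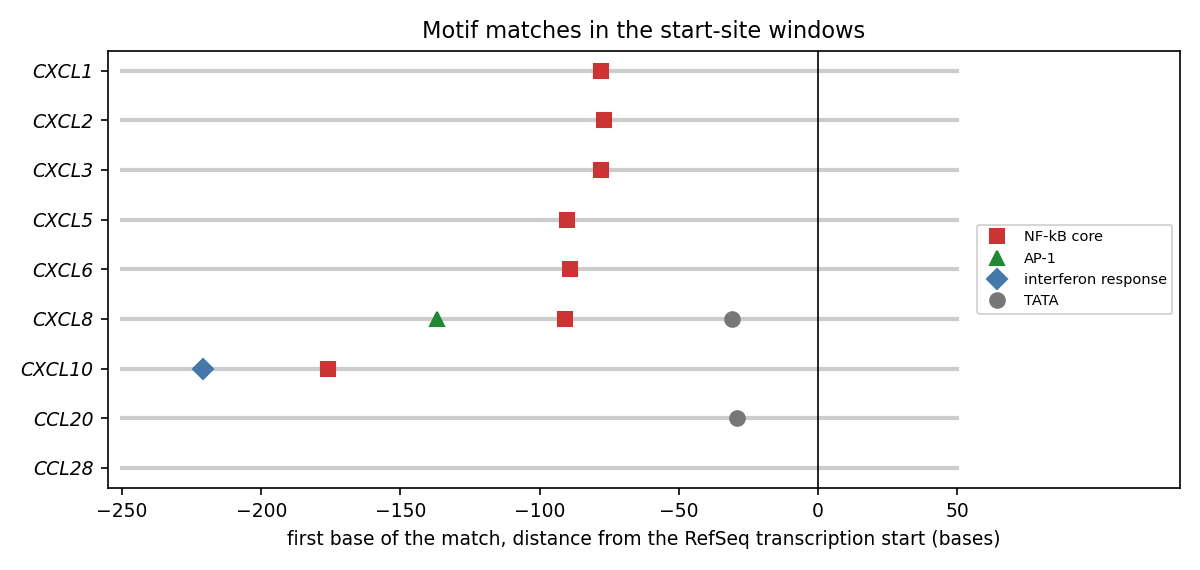
Matches of 4 motifs in the start-site windows of the 9 genes with a RefSeq window (rows), by the distance of the first base from the start in bases; the 2 windows of CCL28 share 1 row. The squares of the ELR genes sit between 77 and 91 bases before the start, and CCL28 has no match to these 4 motifs.

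The 10 chemokines did not move as one. CXCL1, CXCL2, CXCL3 and CXCL8 were lower in the knockout-labelled libraries, CXCL16 and CCL28 were higher, CXCL5, CXCL10 and CCL20 did not pass the test, and CXCL6 was barely read. Of the 9 genes that passed the filter on low counts, 4 were called lower and 2 higher at an adjusted p under 0.05. Over all 16655 genes tested, 25.9% were called lower and 26.7% higher, 52.6% in all, so the number called is near the background and the interest lies in which genes went which way. The median log2 fold change of the 9 was -0.32, beside 0.00348 for all genes tested. CCL28 changed by at least 2-fold, as 7.52% of all genes did upwards, and none of the 4 that fell reached 2-fold downwards, as 1.36% of all genes did. In bulk RNA a lower level cannot be told apart into fewer cells making a transcript and less of it per cell.

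**Figure D2:**
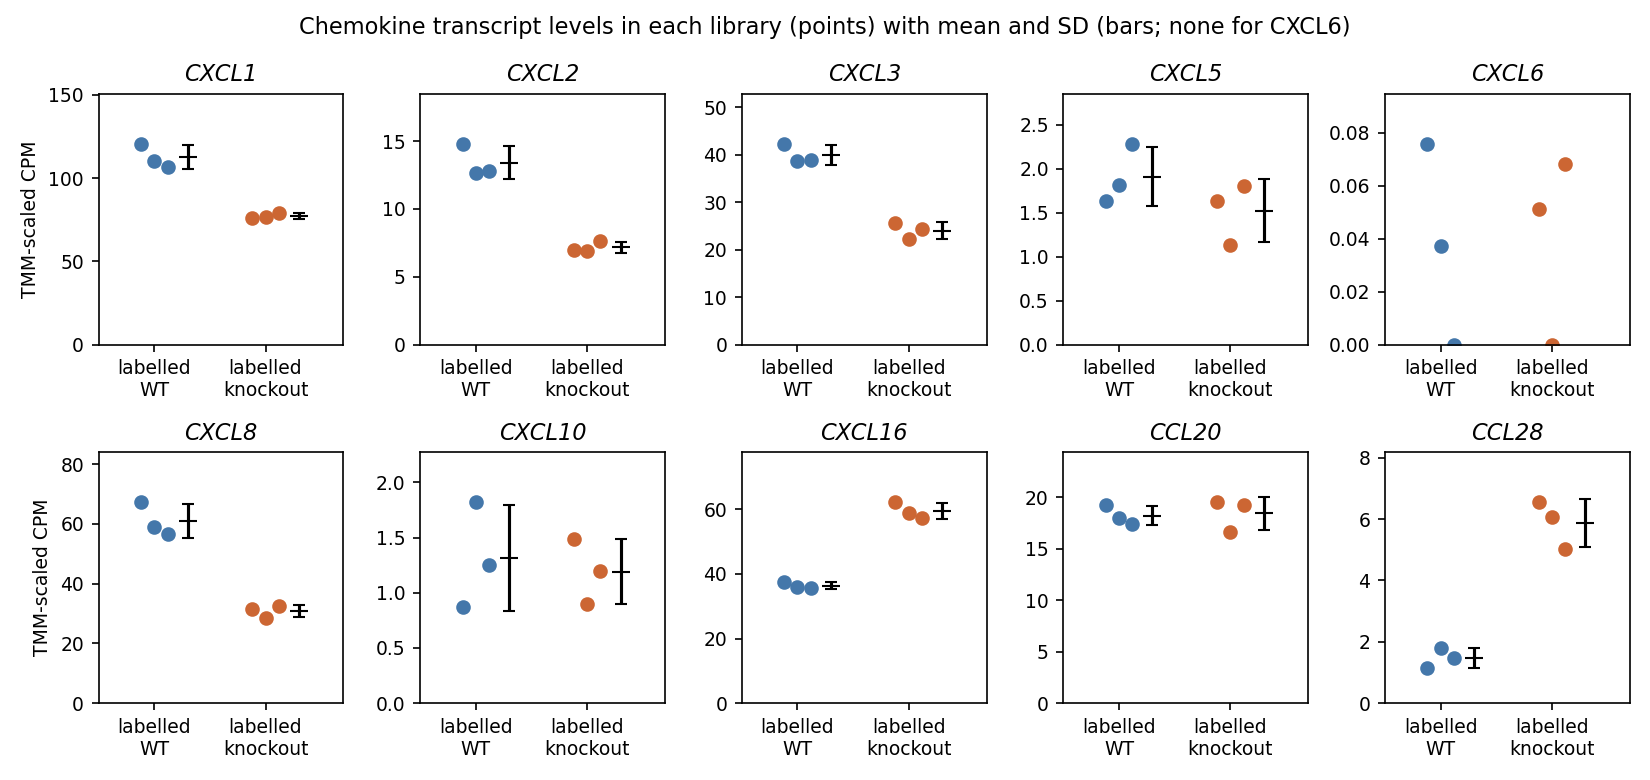
Level of each chemokine in every library, as CPM (each panel with its own axis from 0), with the mean and SD of 3 libraries beside the points except for CXCL6. The groups do not overlap for CXCL1, CXCL2, CXCL3, CXCL8, CXCL16 and CCL28, and overlap for the other 4.

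CXCL8, interleukin-8, the ELR chemokine that binds both CXCR1 and CXCR2, had the lowest log2 fold change of the 9 tested, within its error of that of CXCL2. The gene (ENSG00000169429, chromosome 4, 73740506 to 73743716, plus strand) had 67.3, 59.1 and 56.6 CPM in the WT-labelled libraries and 31.6, 28.6 and 32.4 CPM in the knockout-labelled ones. Every WT-labelled library was above every knockout-labelled library, as for 59.0% of all genes in one direction or the other. The means were 61.0 ± 5.61 and 30.9 ± 1.98 CPM (SD, n = 3 each), and the log2 fold change was -0.98 ± 0.07 (SE), with an adjusted p of 2.88e-11 by edgeR's quasi-likelihood test and Benjamini-Hochberg adjustment.

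CXCL1, CXCL2 and CXCL3, the GRO chemokines, are close paralogs that act mainly through CXCR2. CXCL2 (ENSG00000081041, 74097035 to 74099293, minus strand) had 14.8, 12.6 and 12.8 CPM in the WT-labelled libraries and 6.96, 6.92 and 7.65 CPM in the knockout-labelled ones. Its levels did not overlap between the groups (log2 fold change -0.90 ± 0.11, SE, adjusted p = 1.8e-07). CXCL3 (ENSG00000163734, 74036589 to 74038807, minus strand) had 42.3, 38.7 and 38.9 CPM and 25.7, 22.2 and 24.3 CPM, again with no overlap (-0.74 ± 0.07, adjusted p = 5.83e-09).

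CXCL1 (ENSG00000163739, 73869393 to 73871242, plus strand) was by far the most abundant of the 10. It had 120.6, 110.3 and 106.8 CPM in the WT-labelled libraries and 76.0, 76.4 and 79.3 CPM in the knockout-labelled ones. It fell too, by the least of the 4 (log2 fold change -0.54 ± 0.05, SE, adjusted p = 3.44e-09). Because these paralogs are alike, reads could be shared between them. Of the 50-base windows in the longest coding transcript of GENCODE 29, 5.73% in CXCL1, 9.24% in CXCL2 and 5.26% in CXCL3 occur exactly in a transcript of another gene, always 1 of the same 3. No window of 100 bases did. With the counts of the 3 genes summed, the log2 fold change was -0.61 ± 0.05 (SE, adjusted p = 1.95e-10).

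CXCL5 and CXCL6, the remaining ELR members, were low, and CXCL6 was at the edge of detection. CXCL5 (ENSG00000163735, 73995642 to 73998779, minus strand) was read 43, 49 and 51 times in the WT-labelled libraries and 32, 29 and 53 in the knockout-labelled ones. The groups overlapped, and the log2 fold change of -0.32 did not pass (adjusted p = 0.308), with a 95% interval from -0.84 to 0.21 that holds both no change and the change of CXCL1. CXCL6 (ENSG00000124875, 73836497 to 73849064, plus strand) had 2, 1 and 0 counts against 1, 0 and 2, within the limit that a count of 0 allows (3 counts, or 0.102 to 0.154 CPM by library). It was not tested, and a difference was not detectable at this depth.

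**Figure D3:**
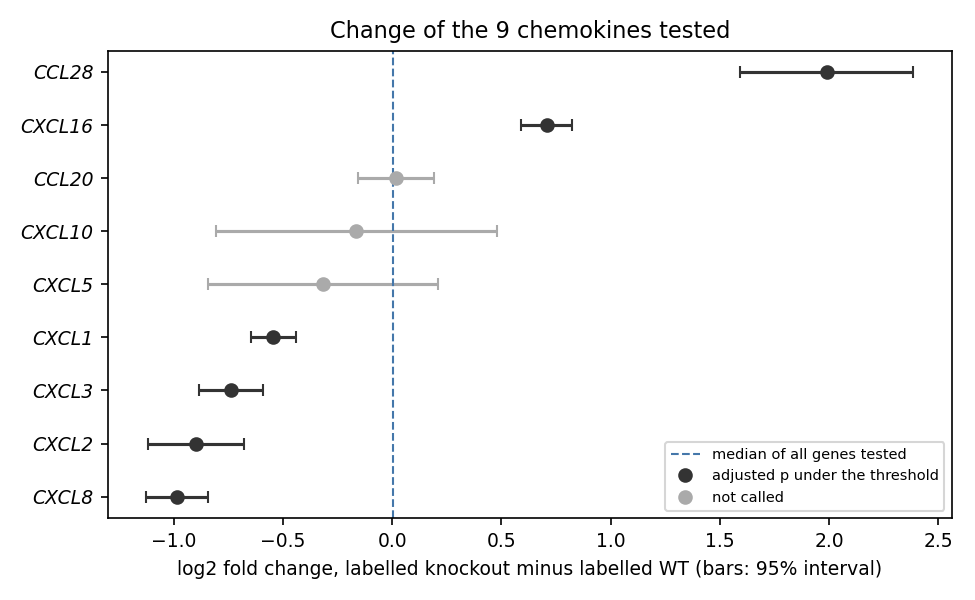
Log2 fold change of the 9 chemokines tested, knockout-labelled libraries minus the WT-labelled ones, with 95% intervals as bars and the median of all genes as a dashed line. The 4 genes from CXCL8 to CXCL1 lie between -0.98 and -0.54, CXCL16 and CCL28 lie above 0, and the intervals of CXCL5, CXCL10 and CCL20 include 0.

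The 4 fitted falls ran from -0.98 for CXCL8 to -0.54 for CXCL1 on the log2 scale, and not all of them were apart beyond their errors. Ratios of 2 genes within a library do not depend on how libraries are scaled. CXCL8 had 0.558, 0.535 and 0.530 counts per CXCL1 count in the WT-labelled libraries and 0.415, 0.375 and 0.409 in the knockout-labelled ones. CXCL2 had 0.123, 0.115 and 0.120 against 0.0915, 0.0907 and 0.0965, and CXCL3 had 0.351, 0.351 and 0.364 against 0.338, 0.290 and 0.307. All 3 ratios were lower in every knockout-labelled library than in any WT-labelled one. CXCL1 had the smallest fitted fall of the 4, so this direction restates the fold changes and is no separate test of them. CXCL8 per CXCL1 fell to 0.739 of its mean in the WT-labelled libraries, CXCL2 to 0.781 and CXCL3 to 0.877. Each had an exact two-sided permutation p of 0.1, the smallest that 3 against 3 libraries can give, and an adjusted 0.1 over the 3 ratios computed (permutation test). Per kilobase of gene, the 6 ELR genes summed to 141.4 ± 9.58 CPM per kb in the WT-labelled libraries and 89.4 ± 2.82 in the knockout-labelled ones. CXCL1 made up 61.4% ± 0.358 of that sum in the first group and 66.7% ± 1.27 in the other, and CXCL8 18.9% ± 0.454 and 15.2% ± 0.546 (SD, n = 3 each). These shares rest on the deposited gene lengths, which need not be those of the transcripts made.

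**Figure D4:**
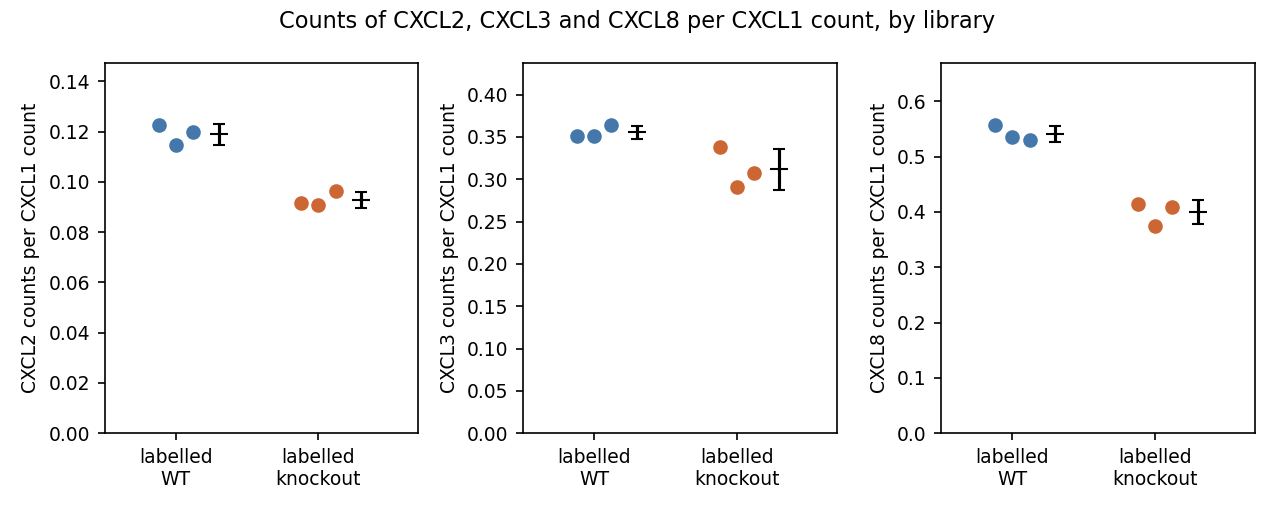
Counts of CXCL2, CXCL3 and CXCL8 per CXCL1 count in each library, with mean and SD of 3 libraries (axes start at 0). All 3 ratios are lower in the knockout-labelled libraries, most clearly for CXCL8 (0.541 against 0.400 on average) and least for CXCL3 (0.356 against 0.312).

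CXCL16 and CCL28 went the other way. CXCL16, a transmembrane chemokine that is also shed in soluble form (ENSG00000161921, chromosome 17, 4733526 to 4739922, minus strand), had 37.5, 35.9 and 35.6 CPM in the WT-labelled libraries and 62.2, 58.7 and 57.3 CPM in the knockout-labelled ones. The groups did not overlap (log2 fold change 0.71 ± 0.06, SE, adjusted p = 3.58e-10). The gene overlaps MED11 on the other strand by 85 bases. MED11 had 113 to 169 counts per library, against 794 to 1679 for CXCL16.

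CCL28, a chemokine of mucosal and glandular epithelia (ENSG00000151882, chromosome 5, 43376645 to 43412391, minus strand), was low but had the largest change of the 9 tested. Its counts were 30, 48 and 33 in the WT-labelled libraries and 128, 156 and 147 in the knockout-labelled ones, or 1.47 ± 0.323 and 5.88 ± 0.783 CPM (SD, n = 3 each). That is a 4.01-fold rise with no overlap (log2 fold change 1.99 ± 0.19, SE, adjusted p = 7.06e-09). Most genes called on chromosome 5 went the other way, 366 lower and 111 higher of 781 tested, with a median log2 fold change of -0.20.

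CCL20 and CXCL10 did not pass. CCL20, the ligand of CCR6 (ENSG00000115009, chromosome 2, 227805739 to 227817564, plus strand), had 19.2, 17.9 and 17.4 CPM in the WT-labelled libraries and 19.5, 16.6 and 19.2 CPM in the knockout-labelled ones. The groups overlapped, and the 95% interval of its log2 fold change ran from -0.16 to 0.19, which excludes a change as large as that of CXCL1. CXCL10, an interferon-inducible chemokine (ENSG00000169245, chromosome 4, 76021117 to 76023497, minus strand), had 23, 49 and 28 counts against 29, 23 and 35. The highest value was in WT replicate 2. Its interval, from -0.81 to 0.48, is wide (log2 fold change -0.16, adjusted p = 0.686), and the sign was positive without that library (0.15) or without knockout replicate 2 (0.01). The gene lies within ART3 on the other strand, which had at most 2 counts in a library.

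For the 6 called genes the authors' deposited table gives log2 fold changes of -0.99 for CXCL8, -0.91 for CXCL2, -0.75 for CXCL3, -0.55 for CXCL1, 0.70 for CXCL16 and 1.99 for CCL28.

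The order of the chemokines by level per length changed with these shifts. In the WT-labelled libraries it ran CXCL1 (86.9 ± 5.54 CPM per kb), CXCL8 (26.8 ± 2.47), CXCL3 (18.0 ± 0.921), CXCL16 (13.0 ± 0.363), CCL20 (11.4 ± 0.582) and CXCL2 (8.93 ± 0.808). CXCL10 (1.12 ± 0.406) and CXCL5 (0.754 ± 0.133) followed within their spread of each other, then CCL28 (0.324 ± 0.0714) and CXCL6 (0.0173 ± 0.0174). In the knockout-labelled libraries CXCL1 (59.6 ± 1.36 CPM per kb) stayed on top, and CXCL16 (21.3 ± 0.892) stood above CXCL8 (13.6 ± 0.872). CCL20 (11.6 ± 1.01) and CXCL3 (10.8 ± 0.798) did not differ beyond their spread, nor did CCL28 (1.30 ± 0.173) and CXCL10 (1.01 ± 0.251). CXCL2 was at 4.79 ± 0.272 CPM per kb and CXCL5 at 0.601 ± 0.140. Length here is the deposited gene length, which need not be the length of the transcript these cells make. For CXCL3 it is 2219 bases, while the longest coding transcript in GENCODE 29 has 1075. For CXCL8 these are 2274 and 1705, for CXCL16 2794 and 2222, and for CCL20 1594 and 839. The order among CXCL8, CXCL3, CXCL16 and CCL20 therefore depends on the length used.

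Few other chemokines were made by these cells. Of 36 other protein-coding ligand genes of the family, 17 had 0 counts in all libraries and 6 passed the filter. CCL22, a ligand of CCR4, was called higher, from 28, 30 and 15 counts to 53, 52 and 59 (log2 fold change 1.21 ± 0.27, SE, adjusted p = 0.000558). The other 5 tested, CCL5 and XCL1 among them, were not called. CX3CL1, a membrane-bound chemokine, had 0 counts in all 3 libraries labelled WT and 12, 7 and 18 in the knockout-labelled ones. Pooled over the group, and against the 3 counts that a count of 0 allows over the group, that is 12.5-fold higher. The figure takes the 37 pooled counts of the knockout-labelled libraries as exact, so it is not a strict lower limit. CXCL17, a mucosal chemokine, had 0, 1 and 1 counts against 7, 12 and 20. CX3CL1 and CXCL17 were below the filter and were named after their values were seen.

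The receptors for the 10 chemokines were nearly absent. CXCR1 and CCR6 had 0 counts in every library, CXCR2 had 2, 3 and 1 counts against 0, 8 and 5, and CXCR3 had 2 counts in 1 library. CXCR6 and CCR10 were tested and not called (adjusted p = 0.4 and 0.694), at 0.307 to 0.892 CPM per library. Of 23 receptors 5 were tested with edgeR, 3 were called higher and 0 lower, with 0 lower also at an unadjusted p under 0.05 and by DESeq2. Of all genes 26.7% were called higher and 25.9% lower. CXCR4, the receptor of CXCL12, went from 10, 9 and 6 counts to 31, 65 and 74 (log2 fold change 2.74 ± 0.33, SE), ACKR3, a scavenging receptor for CXCL12, from 10, 22 and 12 to 34, 53 and 62 (1.76 ± 0.31), and CCRL2 from 39, 46 and 33 to 57, 73 and 71 (0.80 ± 0.21). CXCR4 and ACKR3 passed the filter on low counts only through the knockout-labelled libraries, which favours a higher call, so the receptor count is not balanced between directions. CXCL12 itself had at most 2 counts in a library.

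The list of inducing cytokines and receptors, which also holds interferon and Toll-like receptors and antagonists such as IL1RN, went both ways. Of 25 tested, 10 were higher and 4 lower, beside 26.7% higher and 25.9% lower of all genes. IL1B, a secreted interleukin-1, was 125.3, 111.3 and 111.4 CPM in the WT-labelled libraries and 57.6, 55.8 and 57.4 CPM in the knockout-labelled ones (log2 fold change -1.03 ± 0.05, SE, adjusted p = 1.3e-13). IL36G, another member of the interleukin-1 family, was low and fell (-1.66), while the interleukin IL6 (1.59) and the flagellin receptor TLR5 (1.08) rose. IL36G had 26, 18 and 15 counts against 6, 7 and 5. It passed the filter on low counts only through the WT-labelled libraries, which favours a lower call. IL1A, named after its values were seen, fell from 159.2 ± 8.57 to 81.2 ± 2.17 CPM, a log2 fold change of -0.97. TLR4, the endotoxin receptor, also named after its values were seen, fell from 13.7 ± 1.03 to 6.91 ± 0.490 CPM (-0.98, adjusted p = 4.36e-08). The receptor IL1RAP (0.37) and the antagonist IL1RN (0.54) were higher, and TNF, at 0.819 to 1.66 CPM, did not pass (-0.43, adjusted p = 0.268).

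NF-kB pathway genes were 11 higher and 11 lower of 26 tested (median 0.02), beside 26.7% and 25.9% of all genes. BIRC3, an inhibitor of apoptosis and NF-kB target, went from 85.3 ± 4.82 to 175.5 ± 6.41 CPM (log2 fold change 1.04 ± 0.05, SE), and BCL3 (0.58) and RELB (0.50) rose. NFKBIZ, an atypical nuclear IkB that takes part in inducing secondary NF-kB targets, went from 81.3, 76.1 and 74.9 CPM to 42.3, 41.0 and 38.3 CPM, a log2 fold change of -0.94 ± 0.06 (adjusted p = 1.89e-12). RELA, the main activating subunit, was higher by 0.15 and NFKB1 lower by a log2 fold change of -0.14, both called. RELA and NFKB1 were named after their values were seen, as were IL1RAP, IL1RN, TNF, TYK2 and ZFP36.

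Interferon regulators and targets were 10 higher and 1 lower of 20 tested (median 0.29), beside 26.7% and 25.9% of all genes, while CXCL10 did not pass. IRF7 (0.69), OAS1 (0.68), ISG15 (0.67) and IFIT2 (0.67) rose most. TYK2, an interferon receptor kinase, was the gene that fell (-0.21).

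Factors that bind, remove or regulate AU-rich and stem-loop mRNAs were 9 lower and 0 higher of 14 tested by edgeR (median -0.20). There were 0 higher also at an unadjusted p under 0.05 and by DESeq2. Of all genes 25.9% were called lower and 26.7% higher. The list is called decay factors below, but not all its members promote decay, and ELAVL1, among the 9 lower (-0.19), stabilises such mRNAs. ZC3H12A, the RNase Regnase-1, went from 198.2 ± 5.41 to 137.9 ± 4.93 CPM (log2 fold change -0.52 ± 0.04, SE), RC3H1, which encodes Roquin-1 (-0.41), and KHSRP (-0.40), a decay-promoting protein, followed, and ZFP36L2 fell by 0.27 on the log2 scale. ZFP36, tristetraprolin, did not pass (-0.05, adjusted p = 0.679). With cyclic loess scaling 6 of the 14 were called lower and 1 higher.

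Proteases that cut chemokines, and the heparan sulphate carriers that hold them at the cell surface, were 11 higher and 6 lower of 20 tested (median 0.24), beside 26.7% and 25.9% of all genes. Matrilysin, MMP7, went from 1.90, 2.49 and 2.42 CPM to 17.5, 16.7 and 19.2 CPM (log2 fold change 2.97 ± 0.13, SE). The syndecan SDC2 (2.21), the gelatinase MMP9 (1.85) and cathepsin S, CTSS (1.21), rose from low levels. MMP9 had 5, 12 and 1 counts against 18, 22 and 24. It passed the filter on low counts only through the knockout-labelled libraries, which favours a higher call. ADAM10 and ADAM17, which shed CXCL16 and CX3CL1, were higher by 0.28 and 0.32, and DPP4, a peptidase that trims CXCL10, by 1.14. Among the 6 lower were more abundant genes, the membrane protease MMP14 (466.2, 485.9 and 467.4 CPM to 351.0, 339.4 and 354.7 CPM, -0.44), the glypican GPC1 (607.4 ± 28.6 to 477.1 ± 6.73 CPM, -0.35) and NDST1, a heparan sulphate sulphotransferase (-0.25). The summed level of the 20 genes was 2642 to 2773 CPM in the WT-labelled libraries and 2498 to 2535 CPM in the knockout-labelled ones. ADAM10, ADAM17, DPP4, MMP14, GPC1 and NDST1 were named after their values were seen.

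**Figure D5:**
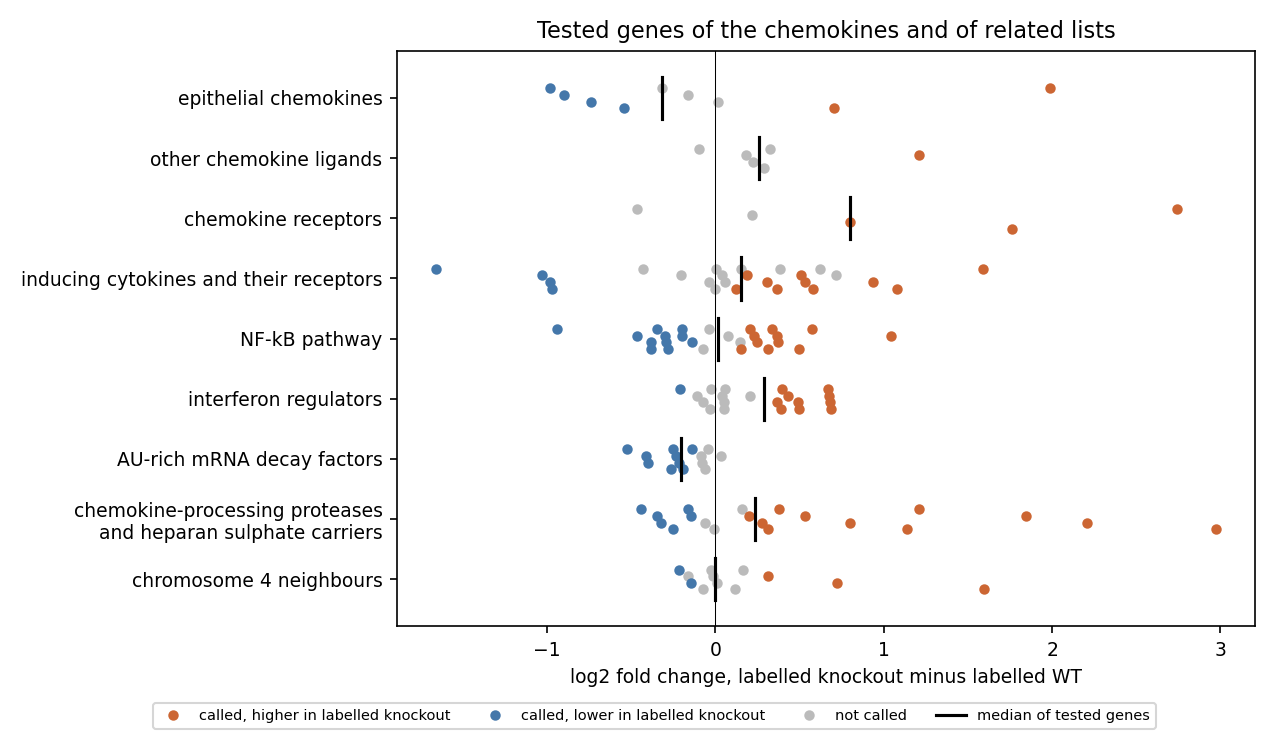
Log2 fold change (knockout-labelled libraries minus labelled WT) of every tested gene among the chemokines and 8 related lists, with the median of each list as a black bar; orange points were called higher, blue lower, grey not called. AU-rich mRNA decay factors, a list that also holds the stabiliser ELAVL1, have a median of -0.20. Interferon regulators have 0.29, whereas NF-kB pathway genes are split evenly.

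The 7 chemokine genes on chromosome 4 lie between 73740506 and 76023497, among other genes. Of 20 other protein-coding genes that start between the first and the last of their starts, 12 were tested, 3 were called higher and 2 lower, with a median log2 fold change of -0.00115. PARM1, a mucin-like membrane protein, rose from 34, 31 and 27 counts to 77, 85 and 112 (1.59 ± 0.21, SE). Growth factor genes of the EGF family lie there too. EPGN (0.72) and BTC (0.32) were higher, EREG was lower (-0.21), and AREG, named after its values were seen, did not pass (-0.07). The other gene called lower was SDAD1 (-0.15, adjusted p = 0.0492), and 1 of the 2 was called lower under 6 of the alternatives run on all libraries. The 3 called higher became 2 with no filter, DESeq2, the replicate block, cyclic loess or any one library left out.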

How the data were processed

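Libraries were prepared with a NEBNext Ultra kit for RNA, which keeps no strand information, from column-purified RNA (per the labels' protocols). The submitters' processing notes name fastp, HISAT2, STAR, DESeq, GRCh38 and hg38. Their versions, and how reads were counted, are not given in the sources used, so overlapping genes may share reads. The authors deposited raw read counts per gene. A second table of the authors', per the file headers, holds counts, normalised signal, FPKM, log2 fold changes and p-values. It lists 29015 genes, with the same counts, and of the rest only log2 fold changes are quoted.

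Counts were fitted with edgeR 4.0.16 (R 4.3.3; quasi-likelihood, two-sided, group only, TMM factors, filterByExpr with minimum count 10 and minimum total 15) over 16655 genes, with Benjamini-Hochberg adjustment over all of them and a threshold of 0.05. Standard errors come from the F statistic. CPM are TMM-scaled. Alternatives were other scaling factors, no filter or a stricter one, DESeq2 1.42.0, limma 3.58.1, a replicate block, leaving out each library, and stricter thresholds. The edgeR fit was also run on simulated data with 16455 of 16655 genes unchanged. There it recovered 46% of 50 genes changed 1.25-fold and 98% of 50 changed 2-fold. In the real data 52.6% of genes were called, so the simulation does not check the fit under changes this widespread. Members and lists were chosen with earlier results of these data known. Each list contributes up to 4 named genes, those called with the largest changes (where none was called, the 2 of smallest p). All 10 chemokines, MUC16 and 6 cell type markers were also named by rule. Others were named after their values were seen, as were the cyclic loess and limma-trend alternatives. No library was treated as a duplicate (chi-square per degree of freedom 2.43 to 6.27). Sequences are from RefSeq.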

Additional observations from a re-analysis of the deposited data

How the results depend on the processing

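CXCL1, CXCL2, CXCL3, CXCL8, CXCL16 and CCL28 kept their direction and their side of the 0.05 threshold under every alternative run, with log2 fold changes of -0.61 to -0.46, -0.99 to -0.61, -0.78 to -0.61, -1.04 to -0.91, 0.67 to 0.76 and 1.78 to 2.16. The -0.61 shared by CXCL1, CXCL2 and CXCL3 is that of their summed counts. CXCL5 stayed uncalled, from -0.55 to -0.13. CXCL10 ran from -0.40 without WT replicate 1 to 0.15 without WT replicate 2, and was 0.01 without knockout replicate 2. CCL20 ran from -0.0242 without knockout replicate 1 to 0.0912 without knockout replicate 2, was -0.0160 without WT replicate 3 and -0.0183 without knockout replicate 3, and was -0.0120 with cyclic loess. None of these CXCL10 and CCL20 values passed the test, and the cause of their changes of sign was not tested.

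Asking for at least 2-fold left 1 chemokine higher and 0 lower, 1252 and 226 of all genes, 2 and 2 inducing cytokines and receptors, 1 and 0 NF-kB genes, 0 and 0 interferon regulators, 0 decay factors lower, 5 and 0 proteases and carriers, and 1 and 0 chromosome 4 neighbours. The 2-fold counts include IL36G (lower) and MMP9 (higher), which each passed the filter on low counts through 1 group only. An adjusted p threshold of 0.01 left 1 neighbour higher and 1 lower. Neighbours called higher were 2 with no filter, DESeq2, the replicate block, cyclic loess or any one library left out. Neighbours called lower were 1 with upper-quartile factors, no filter, the stricter filter, DESeq2 and the replicate block, and 1 to 2 when each library was left out. Other ligands called higher were 3 with no filter, and 1 to 3 when each library was left out (3 without any one WT-labelled library, 2 without knockout replicate 1 or 2). Receptors called higher were 1 with the stricter filter, which tests fewer genes, and with cyclic loess 1 decay factor was called higher and 6 lower.

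Libraries with the same replicate number did not deviate together (correlations 0.00804, 0.0292 and -0.0441), so the numbers were not taken as pairs. Of the libraries, WT replicate 2 alone among the WT-labelled ones correlated best with its own number. With the replicate block 4270 genes were higher and 4172 lower, and 2 chemokines were higher and 4 lower, as without it. Depth limits CXCL5, CXCL6 and CXCL10, which had at most 53 counts in a library.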
